A study of Mus musculus with 242 samples.

Results

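The 34 genes described here encode the enzymes, regulators and lipid droplet proteins with which the liver makes and stores fat. They were taken from a list of names, chosen with earlier results of these data known. Each was found on the arrays, so that all 34 are members of the 18193 genes for which a probe set with 1 gene name was available. Livers came from female B6C3F1 mice, 5 weeks old when a 13-week exposure to 1 of 26 chemicals began, and each of the 242 arrays measured 1 mouse, from 3 liver lobes minced together. The 46 treated groups had 3 to 5 mice each, beside 14 control groups with 59 arrays in all. Arrays were sorted here into 4 runs, called A to D. Run A mixes arrays of different run codes, unevenly spread over its groups, and a code found there is also that of run D. Nothing in the labels says that a replicate number links mice of different groups, and each mouse is taken as 1 replicate.

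The groups fell into feed, gavage and inhalation exposures, given 5 days a week by gavage or inhalation and 7 days a week in feed, and controls received the vehicle, chow or chamber air alone. In feed, against chow, mice received 10000 ppm 4-nitroanthranilic acid, 14800 ppm malathion (the sample titles name another dose), 200 ppm diazinon or 1250 ppm 2,2-bis(bromomethyl)-1,3-propanediol (run A), 1000 ppm tris(2,3-dibromopropyl)phosphate or 20000 ppm 1-amino-2,4-dibromoanthraquinone (run B), and 2000 ppm 1,5-naphthalenediamine, 2000 ppm N-(1-naphthyl)ethylenediamine dihydrochloride or 8187 ppm pentachloronitrobenzene (run C). By gavage in corn oil they received 200 mg/kg coumarin, 100 mg/kg benzene or 62 mg/kg 1,2-dibromoethane (run A), 93 mg/kg iodoform or 3925 mg/kg trichlorofluoromethane (run B), 240 mg/kg 2,3-benzofuran (run C), and 2 to 60 mg/kg 1,2,3-trichloropropane or 100 to 600 mg/kg 1,4-dichlorobenzene (run D). By gavage in water they received 50 mg/kg N-methylolacrylamide or 250 mg/kg 2-chloromethylpyridine hydrochloride (run A). Inhaled agents, against chamber air, were 1250 ppm tetrafluoroethylene and 50000 ppm tetrafluororethane (run B), and 100 ppm ethylene oxide, 2 mg/m3 vanadium pentoxide, 0.5 to 30 ppm naphthalene, 100 to 4000 ppm methylene chloride and 25 to 1200 ppm propylene glycol mono-t-butyl ether (run D). Trichloropropane, dichlorobenzene, naphthalene, methylene chloride and the glycol ether were each given at 5 doses. The labels do not say which control set belongs to a chemical where a run had several sets of 1 vehicle (run A water and run D air and corn oil), so the set whose animal numbers follow those of the chemical was used, a choice inferred from the numbering. With all sets of the same vehicle pooled in run D, the member calls in treated groups numbered 60 in place of 42. The water sets of run A were not pooled, so the choice made there was not checked. Of the 21 calls in the groups this pooling touches, 17 were kept, and the 4 lost were Fads2 with 3 ppm naphthalene and 300 mg/kg dichlorobenzene, Mlxipl with 3000 ppm methylene chloride and Elovl3 with 40 mg/kg trichloropropane.

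Hepatocytes turn surplus carbohydrate into fat. Glycolysis supplies pyruvate, citrate leaves the mitochondrion and is split to acetyl-CoA, acetyl-CoA carboxylase forms malonyl-CoA, fatty acid synthase builds palmitate, and elongases and desaturases extend and unsaturate it. The acyl chains are then esterified to glycerol and kept as triglyceride in droplets coated by perilipins and related proteins, while SREBP-1c and ChREBP, which answer to insulin and glucose, set the transcription of most of these enzymes.

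Signals are given as log2(signal + 17.3) and called log2 signals below, differences are treated minus control with the standard error of the fit, and a gene is said to have risen or fallen only where limma's adjusted p over all 18193 genes was under 0.05 and the fold was at least 1.5. All 7 hepatocyte markers were bright on every array; albumin (Alb) ranged from 33500 to 117000 signal units. RNA integrity numbers ran from 4.7 to 7.8 in run A, and from 7.1 to 9.4 over runs B, C and D. A vanadium pentoxide array and 1 array of 1,5-naphthalenediamine (replicate 2) had been deposited at trimmed mean signals of 148.4 and 84.5 against 500 for the others, and were brought to 500 by 1 factor each; with both left as deposited, the members gave 20 calls in place of the 42 described below.

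Across the 46 treated groups the members gave 42 calls out of 1564 tests, which is 2.69%, against 0.751% over all genes. The list was chosen with earlier results of these data known, and the tests share control sets and dose series. The 2 shares are therefore no test of the members as a set. The calls were 21 rises and 21 falls, held by 17 of the 34 members in 17 of the 46 groups. In 41 of the 42 the treated and control arrays did not overlap. The calls were picked on these same arrays, so a lack of overlap, here and below, is no separate support. Its share among all called genes was not counted. By role, the single uptake gene gave 6 rises, the 7 lipid droplet genes 5 rises and 4 falls, the 7 desaturation and elongation genes 3 rises and 9 falls, the 3 genes of acetyl-CoA supply 3 rises and 2 falls, the 3 fatty acid synthesis genes 2 rises and 1 fall, the 3 regulators 1 rise and 3 falls, the 7 glycerolipid assembly genes 1 rise and 1 fall, and the 3 lipases and lipase inhibitors 1 fall. Fewer cells of a type and less RNA per cell cannot be told apart in these whole-tissue samples.

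**Figure D1:**
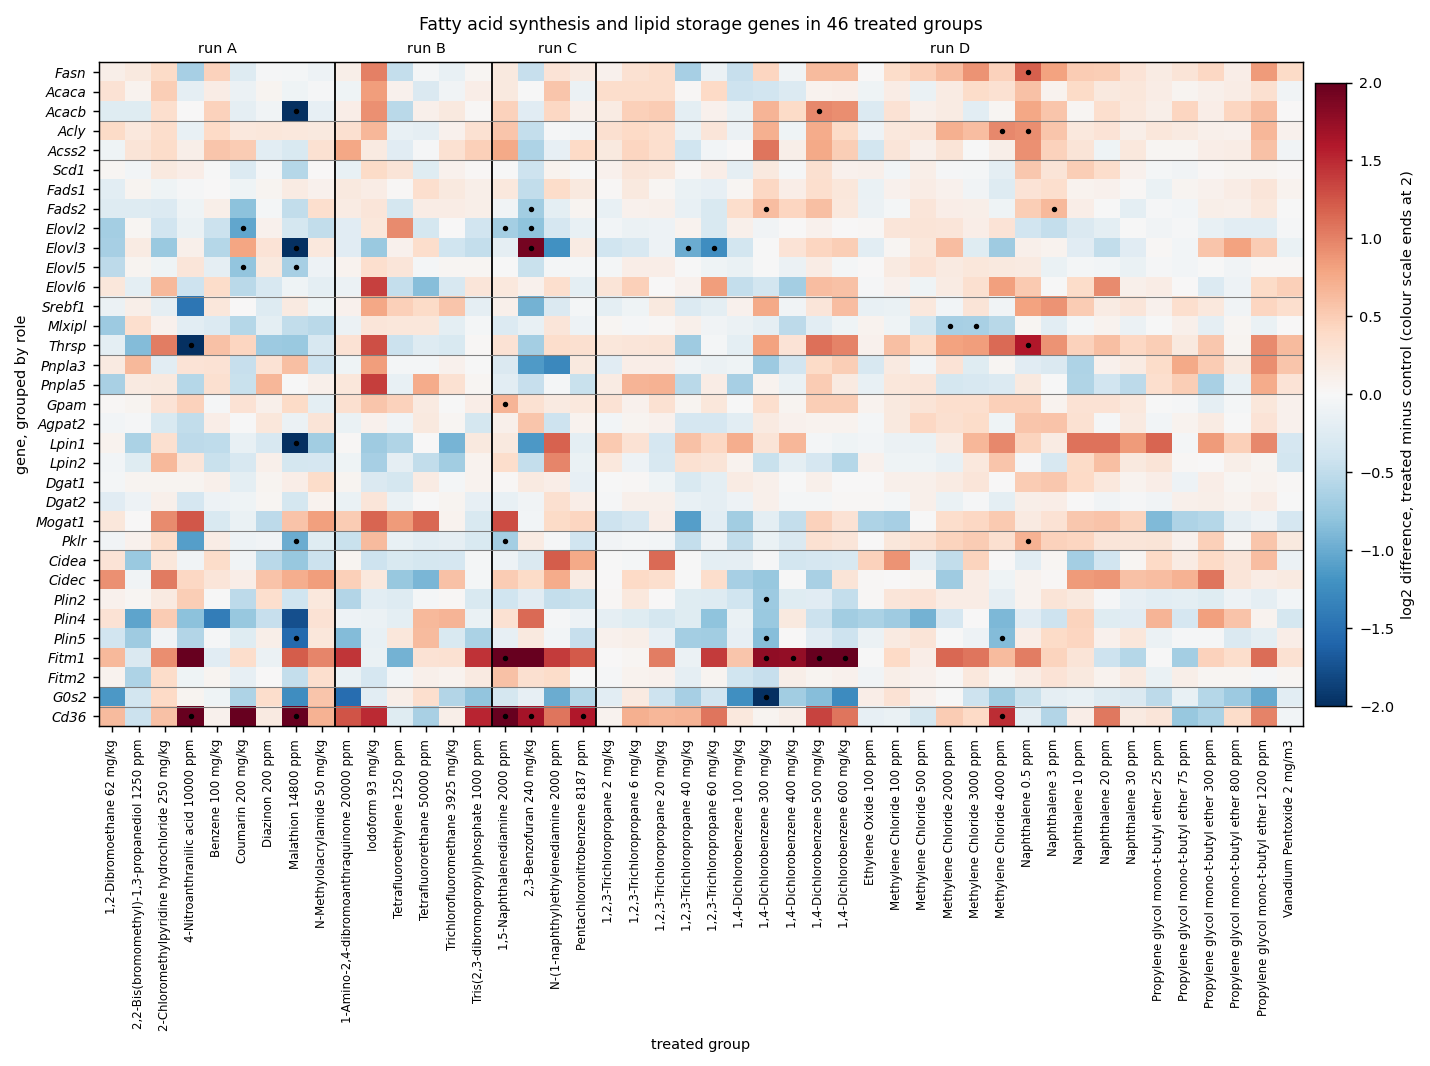
Colour gives the log2 difference of each of the 34 genes (rows, grouped by role) between a treated group and its control set, for 46 treated groups (columns, split by run), with red for higher and blue for lower and the scale ending at 2 in either direction. Black dots mark the 42 calls; the bottom row, Cd36, holds 6 of them and Fitm1 5.

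Fasn, the acetyl-CoA supply genes Acly and Pklr and the regulator Thrsp rose at the lowest dose of naphthalene, an inhaled aromatic hydrocarbon. That group was described after its values were seen, since it is not the top dose of its series. At 0.5 ppm the rises were Fasn, Acly, Thrsp and Pklr, 4 of 34 members beside 2.49% of all genes called. Fasn, fatty acid synthase, had log2 signals of 14.67, 14.37, 13.68 and 13.70 in the treated mice and 12.21, 13.17, 12.70, 13.09 and 13.35 in the air control set ACO5. Every treated array lay above every control array, and the difference was 1.20 ± 0.30 (adjusted p = 0.00908). Thrsp, the thyroid hormone-responsive Spot 14 protein that accompanies lipogenesis, had 14.85, 14.71, 13.92 and 14.21 against 12.19, 13.62, 12.46, 12.90 and 12.92. Its difference was 1.61 ± 0.46 (adjusted p = 0.0255). Acly, ATP citrate lyase, which makes cytosolic acetyl-CoA, had 14.20, 13.80, 13.59 and 13.83 against 12.84, 13.15, 12.59, 12.87 and 13.15, a difference of 0.93 ± 0.27 (adjusted p = 0.0269). Pklr, the liver pyruvate kinase, had 11.59, 11.57, 11.22 and 11.41 against 10.64, 10.79, 10.30, 10.88 and 11.11, a difference of 0.70 ± 0.20 (adjusted p = 0.0272). In none of these 4 genes did the groups overlap. None of the other 5 Acly probe sets was called. The brightest of them (mean signal 7588) differed by 0.46 (adjusted p = 0.402) and another (1974.5) by 0.71 (adjusted p = 0.211), while 3 dim ones (39.7 to 65.7) differed by -0.39 to 0.07. Neither other Pklr probe set was called (0.57, adjusted p = 0.118, and 0.73, adjusted p = 0.102). For Thrsp a bright second probe set was called (1.86, adjusted p = 0.0257) and a dim one was not (0.56, adjusted p = 0.678).

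Other synthesis genes were higher at 0.5 ppm without meeting both criteria. Acaca, the cytosolic acetyl-CoA carboxylase, differed by 0.58 ± 0.17 (adjusted p = 0.0283), just under the required fold. Scd1, the stearoyl-CoA desaturase, differed by 0.53 ± 0.17 (adjusted p = 0.0423), also under it. Acacb, the mitochondrial acetyl-CoA carboxylase, differed by 0.77 ± 0.26 (adjusted p = 0.0656), and Acss2, which makes acetyl-CoA from acetate, by 0.92 ± 0.34 (adjusted p = 0.094). In all, 15 members were higher and 1 lower at an unadjusted p under 0.05, beside 19.3% of all genes in either direction. The members' median difference was 0.23 against -0.06 over all genes. Of 22 measured lipogenesis partners, 2 rose, Tkfc (0.86 ± 0.20, a fructose pathway kinase) and Gpat4 (0.60 ± 0.17, a glycerol-phosphate acyltransferase), and Agpat1 fell (-0.62 ± 0.19).

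Differences of these 4 genes were smaller at every higher naphthalene dose than at 0.5 ppm. Fasn differed by 0.81 ± 0.30 at 3 ppm, 0.51 ± 0.30 at 10 ppm, 0.50 ± 0.30 at 20 ppm and 0.28 ± 0.30 at 30 ppm, none of which passed. At 3 ppm the member that rose was Fads2, the delta-6 desaturase (0.65 ± 0.18, adjusted p = 0.0116, beside 4.14% of all genes), with log2 signals of 13.64, 13.76, 14.04 and 13.92 against 13.14, 13.19, 13.06, 13.03 and 13.54. Neither other Fads2 probe set was called there in the limma fit of every probe set. The brighter (mean signal 8648) differed by 0.33 (adjusted p = 0.253) and the dimmer (1754) by 0.50 (adjusted p = 0.0781). The trend over control and 5 doses called no member (0.0934% of all genes). At an unadjusted p under 0.05 it gave 7 members, beside 9.1% of all genes. A trend fitted to the 5 dosed groups alone called 4, Acly, Fads2, Fasn and Fitm1. The calls at 0.5 ppm were sensitive to single mice: Fasn was lost without control replicate 1 or treated replicate 1 or 2 (adjusted p up to 0.0676), Thrsp without control replicates 1 or 3 or treated 1 or 2 (up to 0.103), and Acly and Pklr without those 4 or treated replicate 4 (up to 0.0905 and 0.108). Fads2 at 3 ppm was lost without treated replicate 3 (adjusted p = 0.0631). Quantile normalisation ended the calls of Acly (0.80, adjusted p = 0.0855) and Thrsp (1.47, adjusted p = 0.0614) at 0.5 ppm, and left Fads2 at 3 ppm under the required fold (0.49). Against all 3 air control sets of the run pooled, 9 members were called at 0.5 ppm. RNA integrity moved with the group: the recorded values at 0.5 ppm were all 9.2, and the ACO5 controls had 8.5 to 8.9; 3 of the 7 hepatocyte markers rose too, among them albumin (Alb, 0.67 ± 0.17), and 1 of 6 endothelial markers, Cdh5, fell (-0.65 ± 0.19). The part of these differences in the result was not tested.

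**Figure D2:**
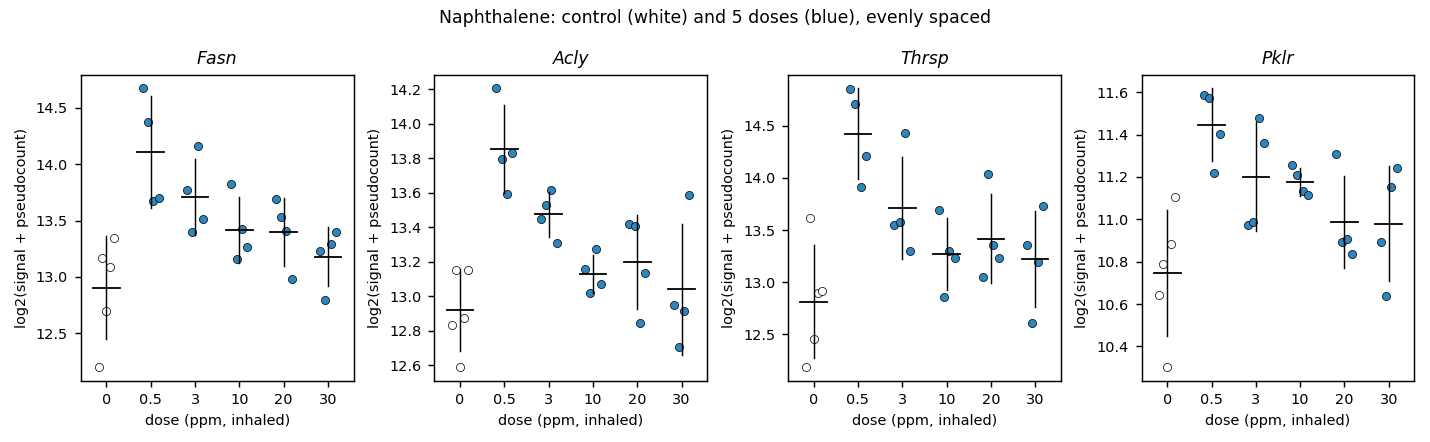
Each point is the log2 signal of 1 mouse for Fasn, Acly, Thrsp and Pklr at 0 (white) and at 5 inhaled doses of naphthalene in ppm (blue), evenly spaced on the x axis; horizontal bars are means and vertical bars 1 SD. All 4 genes are highest at 0.5 ppm and approach the controls at 10 to 30 ppm.

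The promoters of these 4 genes and of Cd36, the member called in the most groups, are shown because the genes moved together or most often. RefSeq promoter windows of GRCm38.p6, from 250 bases before to 50 bases after the start site, existed for 28 of the 34 members in 38 windows; none was at hand for Cidea, Dgat1, Dgat2, Elovl3, Fads1 and Scd1. The sequence is that of the reference strain, not of the hybrid mice. Capitals mark 3 searched strings found here on either strand: CCAAT (the NF-Y box, reading ATTGG on the other strand), AGGTCA (a nuclear receptor half-site, reading TGACCT) and TATAAA. Pklr has 2 windows, and the downstream one is printed.
Fasn (chr11:120824498-120824797, minus strand): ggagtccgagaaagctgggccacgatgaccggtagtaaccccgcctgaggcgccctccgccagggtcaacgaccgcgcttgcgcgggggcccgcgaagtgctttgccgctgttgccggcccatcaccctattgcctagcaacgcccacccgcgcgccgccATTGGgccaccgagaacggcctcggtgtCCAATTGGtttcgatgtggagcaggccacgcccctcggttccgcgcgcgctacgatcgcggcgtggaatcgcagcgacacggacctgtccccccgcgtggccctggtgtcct
Acly (chr11:100527951-100528250, minus strand): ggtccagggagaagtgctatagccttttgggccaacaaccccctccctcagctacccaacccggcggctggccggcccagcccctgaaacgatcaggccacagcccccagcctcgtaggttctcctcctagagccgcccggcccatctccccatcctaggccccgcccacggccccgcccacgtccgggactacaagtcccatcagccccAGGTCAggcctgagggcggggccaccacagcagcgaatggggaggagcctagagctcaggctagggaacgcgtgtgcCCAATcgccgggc
Pklr (chr3:89136373-89136672, plus strand): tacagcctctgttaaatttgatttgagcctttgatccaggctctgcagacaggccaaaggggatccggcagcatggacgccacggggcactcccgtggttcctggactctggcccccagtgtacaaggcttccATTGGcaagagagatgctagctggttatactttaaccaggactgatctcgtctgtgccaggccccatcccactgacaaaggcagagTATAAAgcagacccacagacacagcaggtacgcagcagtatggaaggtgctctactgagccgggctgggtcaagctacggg
Thrsp (chr7:97417501-97417800, minus strand): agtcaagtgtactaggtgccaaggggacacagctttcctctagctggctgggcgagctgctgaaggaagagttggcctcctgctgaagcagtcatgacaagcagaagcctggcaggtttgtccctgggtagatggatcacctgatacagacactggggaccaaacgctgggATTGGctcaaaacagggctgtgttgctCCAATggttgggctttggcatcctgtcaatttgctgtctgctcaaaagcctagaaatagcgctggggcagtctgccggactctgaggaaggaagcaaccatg
Cd36 (chr5:17835847-17836146, minus strand): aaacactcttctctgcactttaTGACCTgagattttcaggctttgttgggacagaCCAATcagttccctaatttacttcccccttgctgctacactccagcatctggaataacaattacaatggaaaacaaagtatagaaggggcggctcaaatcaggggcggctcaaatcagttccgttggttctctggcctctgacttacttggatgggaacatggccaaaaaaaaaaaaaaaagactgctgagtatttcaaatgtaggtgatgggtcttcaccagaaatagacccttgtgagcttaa
Fasn carries 3 CCAAT strings, at 90, 62 and 59 bases before the start site, the last 2 overlapping, and Thrsp 2, at 79 and 52 bases before it. Acly carries 1 at 38 bases after the start site, Pklr 1 at 117 bases before it and Cd36 1 at 195 bases before it. CCAAT occurs in 37.4% of all 32851 windows and in 19 of the 38 member windows (50.0%). AGGTCA lies 40 bases before the start of Acly and 228 bases before that of Cd36; it occurs in 16.3% of all windows and 26.3% of the member windows. TATAAA, found 31 bases before the start of Pklr, occurs in 13.6% of all windows and 2 member windows. The E-box CACGTG (7.15% of all windows) was found in Elovl5, Lpin2, Mlxipl, Plin2 and Pnpla5, and the sterol-element string TCACNCCAC (1.24%) in Mlxipl; each string was searched on both strands and counted whether or not it overlapped another.

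Thrsp, Pklr and Acacb fell with chemicals given in feed. Under 4-nitroanthranilic acid 2 members were called (0.11% of all genes), one of them Thrsp. Its log2 signals were 11.68, 12.11, 12.39 and 11.05 against 13.18, 13.91, 13.94 and 14.54 in the chow control set FCO2, and the difference was -2.08 ± 0.43 (adjusted p = 0.0206). The call was lost without control replicate 2, 3 or 4 or treated replicate 1, 2 or 4 (adjusted p up to 0.166). Srebf1, the gene of SREBP-1c, differed by -1.44 ± 0.40 (adjusted p = 0.197), Pklr by -1.10 ± 0.27 (adjusted p = 0.0946) and Fasn by -0.67 ± 0.32 (adjusted p = 0.761).

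Malathion, an organophosphate insecticide, changed 7 members (4.37% of all genes): Cd36 rose, and Acacb, Elovl3, Lpin1, Plin5, Pklr and Elovl5 fell. Acacb, whose product malonyl-CoA restrains fatty acid entry into mitochondria, had log2 signals of 8.99, 7.69, 8.47, 7.94 and 7.82 against 11.15, 10.17, 11.16 and 10.61 in FCO2, a difference of -2.47 ± 0.41 (adjusted p = 5.31e-05). It was the largest fall of any member, and a second, much dimmer Acacb probe set (mean signal 36.2) did not show it (0.24, adjusted p = 0.89). Pklr had 10.44, 10.53, 9.85, 9.28 and 10.21 against 11.10, 10.76, 11.37 and 11.75, a difference of -0.99 ± 0.26 (adjusted p = 0.015), lost without control replicate 4 or treated replicate 4 (adjusted p up to 0.0733). Fasn differed by -0.04 ± 0.31 (adjusted p = 0.976). The malathion arrays with a recorded RNA integrity number had 4.7 to 6.5 against 6.7 to 7.2 in FCO2, and replicate 3 had none recorded. Without the arrays under 5, Pklr (adjusted p = 0.0602) and Elovl5 (adjusted p = 0.0781) were lost and the other 5 calls stood. Replicate 3 was kept in that limma fit. Other genes of the pathway were called in both directions. Of 22 measured lipogenesis partners 2 rose and 2 fell, of 19 storage and transport partners 3 rose and none fell, and of 24 regulators 1 rose and 2 fell. The 4 with the lowest adjusted p were rises, of Scd2 (a desaturase isoform, 3.57 ± 0.37), Lpl (lipoprotein lipase, 3.41 ± 0.57), Pparg (the fat cell receptor PPAR gamma, 2.55 ± 0.46) and Abhd5 (a lipase co-activator, 1.33 ± 0.21). The falls, named here after their values were seen, were Aacs (-1.66 ± 0.46), Slc27a2 (-0.66 ± 0.18), Foxo1 (-1.14 ± 0.22) and Nr1h4 (-0.78 ± 0.19).

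Acacb moved the other way with 1,4-dichlorobenzene, a chlorinated benzene given by gavage. Group means were 10.26 ± 0.47 in the corn oil set CCO5 (SD, n = 5), then 10.13 ± 0.07, 10.95 ± 0.38, 10.65 ± 0.22, 11.22 ± 0.34 and 11.19 ± 0.33 (SD, n = 4 each) from 100 to 600 mg/kg. The dose trend gave 1.09 ± 0.23 from control to top dose (adjusted p = 0.000934), 1 of 2 members called by that trend beside 1.12% of all genes. At 500 mg/kg, where 2 members were called (0.803% of all genes), Acacb had 11.27, 10.78, 11.62 and 11.20 against 9.98, 10.36, 9.70, 10.96 and 10.31; the difference was 0.96 ± 0.26 (adjusted p = 0.0375), and the groups overlapped through control replicate 4. That single-dose call was lost without control replicates 1, 2, 3 or 5 or treated 1, 3 or 4 (adjusted p up to 0.227) and with the Gapdh ratio as a covariate (adjusted p = 0.33); the trend call was kept without any single array.

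Of the 12 calls of elongases and desaturases, 9 were falls. Elovl3, an elongase of saturated very long chains that is strongly regulated in liver, fell with malathion and 1,2,3-trichloropropane and rose with 2,3-benzofuran. With malathion it had 6.88, 6.65, 6.76, 7.36 and 6.49 against 9.56, 9.33, 8.95 and 8.42, a difference of -2.30 ± 0.51 (adjusted p = 0.00306). With 2,3-benzofuran, a furan-fused benzene, it had 10.09, 10.31 and 10.36 against 8.66, 8.23 and 8.11 in the corn oil controls of run C, a difference of 1.92 ± 0.31 (adjusted p = 0.00392; 4 members called, 3.28% of all genes). The groups did not overlap in either case.

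With 1,2,3-trichloropropane, Elovl3 fell at 40 and 60 mg/kg and in the dose trend. The corn oil set CCO6 had 10.08, 9.48, 10.06, 9.97 and 10.18. The 60 mg/kg mice had 8.17, 8.77, 9.13 and 8.76, a difference of -1.25 ± 0.28 (adjusted p = 0.012, the only member beside 0.401% of all genes), and the 40 mg/kg mice 9.09, 9.13, 8.24 and 9.39, a difference of -0.99 ± 0.28 (adjusted p = 0.0414, the only member beside 1.34% of all genes). At 2, 6 and 20 mg/kg the differences were -0.39, -0.31 and -0.10. The trend was -1.12 ± 0.24 (adjusted p = 0.00393), 1 of 2 members called beside 0.577% of all genes. Without the 60 mg/kg group the trend was -0.67 (adjusted p = 0.235), and among the dosed groups alone it was -0.95 (adjusted p = 0.0656). The 60 mg/kg call was lost without treated replicate 1 (adjusted p = 0.118), and the 40 mg/kg call without any of 7 arrays, all but control replicate 2 and treated replicate 4 (adjusted p up to 0.256).

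Elovl2, which makes the precursors of docosahexaenoic acid, fell in 3 groups. In coumarin, a plant lactone, it had 13.06, 13.36, 12.44 and 13.36 against 14.18, 14.41, 13.90 and 13.89 in the corn oil set CCO2, a difference of -1.04 ± 0.24 (adjusted p = 0.0268). In 2,3-benzofuran it had 13.22, 13.27 and 13.04 against 13.93, 13.97 and 14.07, a difference of -0.81 ± 0.15 (adjusted p = 0.0109). In 1,5-naphthalenediamine it had 13.54, 13.07 and 13.10 against 14.10, 13.90 and 13.76 in the chow controls of run C, a difference of -0.68 ± 0.15 (adjusted p = 0.0263; 5 members called, 3.4% of all genes). In none of the 3 did the groups overlap. The coumarin call was lost without any 1 control, without treated replicate 3 (adjusted p up to 0.236) and without the run code as a block, and the naphthalenediamine call without control replicates 1 or 2 or treated 2 or 3 (up to 0.101).

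Elovl5, the elongase that follows the delta-6 desaturase, fell with coumarin (2 members called, 0.357% of all genes) from 14.85, 15.00, 14.69 and 15.07 to 14.26, 14.51, 13.57 and 14.08, a difference of -0.80 ± 0.19 (adjusted p = 0.0465). The call was lost without control replicates 1, 2 or 4 or treated 1, 3 or 4 (adjusted p up to 0.307), and without the run code block. It was also lost with the Gapdh ratio as a covariate and with every probe set fitted. In the latter limma fit a second Elovl5 probe set of similar brightness differed by -0.71 (adjusted p = 0.1997). RNA integrity numbers were 7.2 to 7.8 in the treated mice against 6.6 to 7.1 in CCO2, and no fit held these numbers. With malathion Elovl5 had 14.08, 14.20, 13.98, 13.85 and 14.20 against 14.82, 14.62, 14.78 and 14.71, a difference of -0.66 ± 0.19 (adjusted p = 0.0256), lost without any of 7 of the 9 arrays, treated replicates 2 and 5 excepted (up to 0.0707). Fads2 fell with 2,3-benzofuran from 13.24, 13.29 and 13.31 to 12.55, 12.48 and 12.71, a difference of -0.70 ± 0.16 (adjusted p = 0.0303), lost without any 1 of the 6 arrays (up to 0.104). It rose with 300 mg/kg 1,4-dichlorobenzene by 0.62 ± 0.18 (adjusted p = 0.0279), but by 0.48 (adjusted p = 0.0616) under quantile normalisation. Neither other Fads2 probe set was called in these groups in the limma fit of every probe set. With 2,3-benzofuran they differed by -0.41 (adjusted p = 0.261) and -0.22 (adjusted p = 0.627). With 1,4-dichlorobenzene they differed by 0.45 (adjusted p = 0.128) and 0.15 (adjusted p = 0.77).

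Among the regulators, Mlxipl, the gene of the glucose-responsive factor ChREBP, fell with methylene chloride, an inhaled solvent. Means were 12.65 ± 0.21 in the air set ACO4 (SD, n = 5), then 12.56 ± 0.20, 12.30 ± 0.13, 11.98 ± 0.28, 12.01 ± 0.26 and 12.10 ± 0.38 (SD, n = 4 each) at 100, 500, 2000, 3000 and 4000 ppm. The trend was -0.67 ± 0.15 (adjusted p = 0.000878), 1 of 4 members called by it beside 3.5% of all genes. On single arrays the controls had 12.59, 12.65, 12.32, 12.87 and 12.80, against 12.00, 12.29, 11.60 and 12.04 at 2000 ppm and 11.75, 12.25, 12.20 and 11.83 at 3000 ppm, with no overlap at either dose. Mlxipl alone of the members was called at 2000 ppm (-0.67 ± 0.17, adjusted p = 0.0241, 0.857% of all genes) and at 3000 ppm (-0.64 ± 0.17, adjusted p = 0.0137, 3.05% of all genes); at 4000 ppm it differed by -0.55 ± 0.17 (adjusted p = 0.0449), under the required fold. The trend fell under the required fold without 4000 ppm replicate 1 and, among the 5 dosed groups alone, was -0.48 (adjusted p = 0.0721); the 2000 ppm call was lost without control replicates 4 or 5 or treated 1, 3 or 4 (adjusted p up to 0.183), and the 3000 ppm call without control replicate 4 or treated 1 or 4 (up to 0.083).

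Acly rose over the same doses while Mlxipl fell. Its means were 12.86 ± 0.63 in ACO4 and 13.07 ± 0.38, 13.11 ± 0.40, 13.57 ± 0.12, 13.48 ± 0.26 and 13.82 ± 0.23 from 100 to 4000 ppm, with a trend of 0.92 ± 0.23 (adjusted p = 0.00447). That trend was lost among the 5 dosed groups alone (0.74, adjusted p = 0.0791) and without the top dose (0.69, adjusted p = 0.0719). At 4000 ppm, where 3 members were called (2.92% of all genes), Acly had 14.09, 13.69, 13.92 and 13.56 against 13.29, 13.41, 13.08, 11.85 and 12.66; the difference was 0.96 ± 0.27 (adjusted p = 0.0198), lost without control replicate 4 or treated 1 or 3 (up to 0.134). In that trend 2 of 22 lipogenesis partners rose and 1 fell, 1 of 19 storage partners rose and 1 fell, and none of 24 regulators was called. Apoa4, an apolipoprotein secreted with triglyceride, rose (1.33 ± 0.16), as did Tkfc (0.71 ± 0.17), and Pdk4 (-1.54 ± 0.32, which blocks pyruvate oxidation) and Fabp2 (-0.77 ± 0.18, a fatty acid binding protein) fell.

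**Figure D3:**
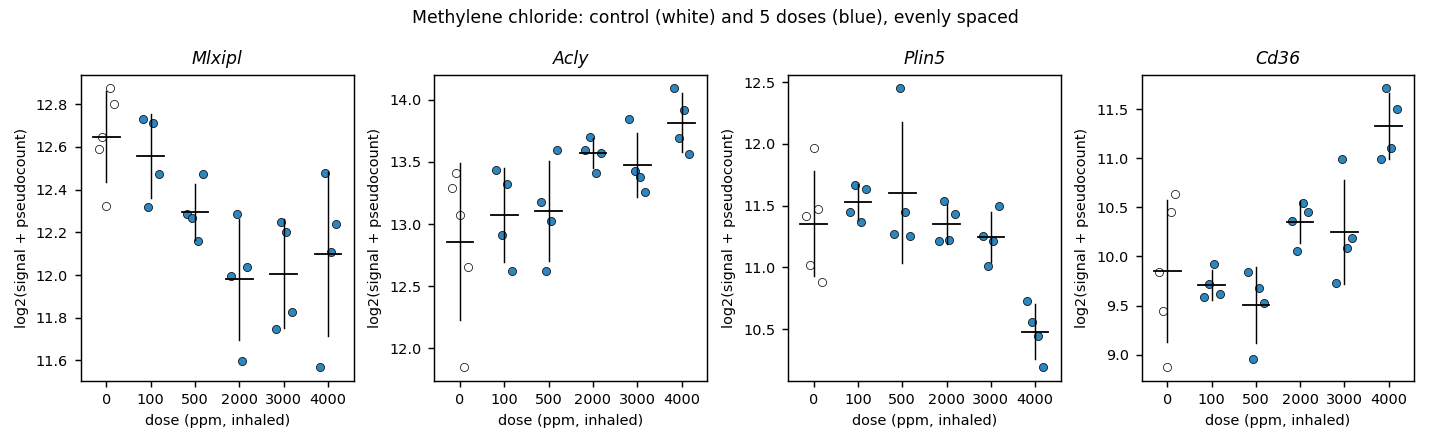
Each point is the log2 signal of 1 mouse for Mlxipl, Acly, Plin5 and Cd36 in air controls (white) and at 5 inhaled doses of methylene chloride in ppm (blue), evenly spaced on the x axis; horizontal bars are means and vertical bars 1 SD. Mlxipl is lower from 2000 ppm, Acly climbs, and Plin5 and Cd36 stand apart from the controls at 4000 ppm.

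Few genes of glycerolipid assembly were called. Lpin1, a phosphatidate phosphatase that also acts as a transcriptional co-activator, fell with malathion, with 12.00, 11.71, 10.41, 11.54 and 13.03 against 13.65, 13.70, 14.35 and 13.73, a difference of -2.22 ± 0.56 (adjusted p = 0.0112). The call was lost without control replicate 3 or treated replicate 3 (adjusted p up to 0.0529). Gpam, the mitochondrial acyltransferase that starts triglyceride assembly, rose with 1,5-naphthalenediamine, with 13.19, 13.79 and 13.65 against 12.94, 12.74 and 12.92, a difference of 0.67 ± 0.17 (adjusted p = 0.0389). That value turned to -0.18 when the rescaled array was left as deposited, a second Gpam probe set differed by -0.35 (adjusted p = 0.629), and leaving out any 1 control or treated replicate 2 or 3 (up to 0.142) or quantile normalisation (0.53, adjusted p = 0.0877) ended the call. Pklr fell in the same group by 0.69 on the log2 scale ± 0.17 (adjusted p = 0.043), with 10.37, 10.46 and 10.12 against 10.83, 10.90 and 11.28, and was lost without any 1 of the 6 arrays (up to 0.138). In the limma fit of every probe set this probe set was not called, but both other Pklr probe sets were. They differed by -1.21 (adjusted p = 0.012) and -1.21 (adjusted p = 0.0226).

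Fitm1, which helps package triglyceride into droplets and is best known from muscle, rose with 1,4-dichlorobenzene dose. The CCO5 controls had 7.71, 6.62, 8.53, 8.71 and 6.50, the widest spread of the 6 groups (SD 1.03). At 600 mg/kg, where it was the only member called (0.704% of all genes), the mice had 10.02, 9.86, 11.17 and 10.81. The difference was 2.85 ± 0.46 (adjusted p = 6.8e-06), and no arrays overlapped. Differences at the lower doses were 0.55 ± 0.46 at 100 mg/kg, 1.78 ± 0.46 at 300, 1.76 ± 0.46 at 400 (the only member called there, 0.462% of all genes) and 2.69 ± 0.46 at 500 mg/kg, and the last 3 were calls. The trend was 2.95 ± 0.39 (adjusted p = 1.39e-08). The 500 and 600 mg/kg calls and the trend were kept without any single array; the 300 mg/kg call was lost without control replicates 2 or 5 or treated 2 or 3 (adjusted p up to 0.0681), and the 400 mg/kg call without control 1, 2 or 5 or treated 1, 2 or 4 (up to 0.157). In the trend 2 of 22 lipogenesis partners rose, 2 of 19 storage partners rose and 1 fell, and 1 of 24 regulators rose. Me1 (malic enzyme, an NADPH source, 1.19 ± 0.14), Abhd5 (0.82 ± 0.10) and Elovl1 (0.68 ± 0.17) had the lowest adjusted p among the rises, and Vldlr, the very low density lipoprotein receptor, fell (-1.27 ± 0.31).

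G0s2, an inhibitor of the main triglyceride lipase, fell at 300 mg/kg of the same chemical, and this lower dose was described after its values were seen (5 members called, 2.0% of all genes). Its log2 signals were 10.20, 11.91, 11.59 and 11.78 against 13.92, 12.23, 13.85, 14.44 and 13.19, a difference of -2.15 ± 0.42 (adjusted p = 0.000455) kept without any single array. At 100, 400, 500 and 600 mg/kg G0s2 differed by -1.22, -0.69, -0.86 and -1.26 with no call, and its trend was -0.54 ± 0.36 (adjusted p = 0.539). Plin2, the main hepatic droplet coat, had 13.53, 13.67, 13.97 and 13.76 against 14.84, 14.34, 14.70, 14.32 and 14.09 at 300 mg/kg, a difference of -0.72 ± 0.21 (adjusted p = 0.0285). Plin5, the coat of droplets beside mitochondria, had 10.71, 10.82, 11.12 and 11.08 against 11.78, 11.21, 12.34, 11.87 and 11.69, a difference of -0.85 ± 0.24 (adjusted p = 0.0259). Each of these 2 was lost without any of 5 arrays, control replicate 3 and treated 1, 2 and 4 among them (adjusted p up to 0.0967 and 0.113), the others being control replicate 1 for Plin2 and treated replicate 3 for Plin5. Fads2 at this dose was lost without control replicates 1, 3 or 5 or treated 2, 3 or 4 (up to 0.117).

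The ratio of 3′ to 5′ Gapdh signal, a measure of RNA integrity on these arrays, moved with 4 of these dose groups. Its log2 was -0.41 to -0.12 in CCO5 and lower on every array at 100, 300, 400 and 500 mg/kg (-0.59 to -0.48), but not at 600 mg/kg. With that ratio as a covariate, Fitm1 was lost at 300 mg/kg (1.69, adjusted p = 0.0747) and 400 mg/kg (1.66, adjusted p = 0.209), Fads2 at 300 mg/kg (0.27, adjusted p = 0.508) and Acacb at 500 mg/kg. G0s2, Plin2 and Plin5 at 300 mg/kg, Fitm1 at 500 and 600 mg/kg and both trends were kept.

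**Figure D4:**
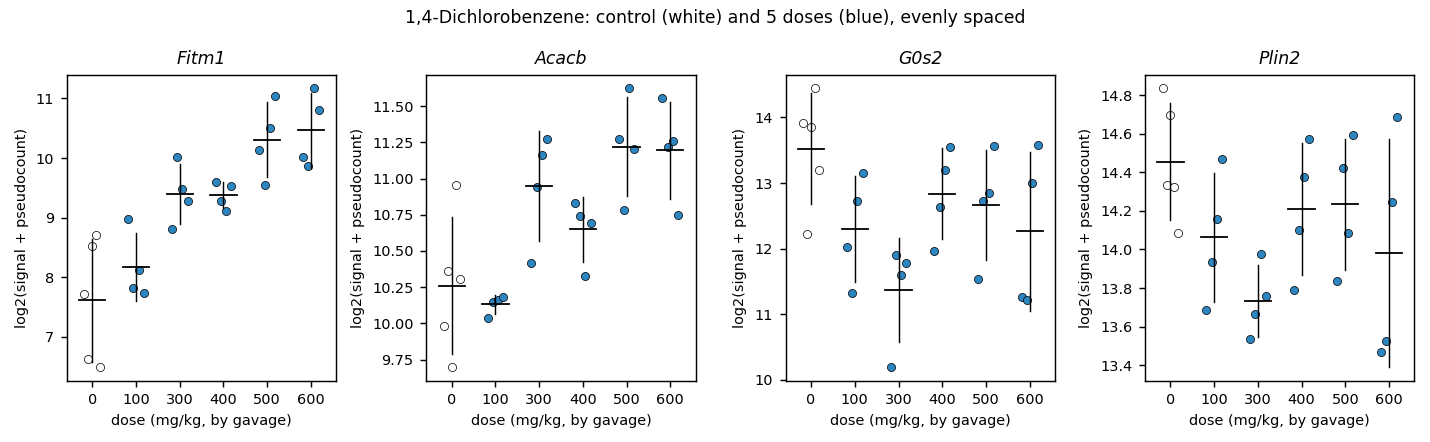
Each point is the log2 signal of 1 mouse for Fitm1, Acacb, G0s2 and Plin2 in corn oil controls (white) and at 5 gavage doses of 1,4-dichlorobenzene in mg/kg (blue), evenly spaced on the x axis; horizontal bars are means and vertical bars 1 SD. Fitm1 and Acacb climb with dose, whereas G0s2 and Plin2 have their lowest means at 300 mg/kg.

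Fitm1 also rose with 1,5-naphthalenediamine, from 6.30, 6.30 and 6.41 in the chow controls to 9.39, 9.26 and 10.13. The difference was 3.25 ± 0.61 (adjusted p = 0.012), the largest rise of any member, and it was kept without any single array. Smaller differences of Fitm1 that did not pass included 2.09 ± 0.61 (adjusted p = 0.0693) in 2,3-benzofuran and 1.99 ± 0.58 (adjusted p = 0.271) in 4-nitroanthranilic acid. In the latter group 3 mice had 9.12 to 9.75 and the fourth 6.77 against 6.21 to 7.51 in FCO2.

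Plin5 also fell with malathion, with methylene chloride and in the trichloropropane trend, where the 60 mg/kg and control mice overlapped. With malathion it had 10.72, 10.86, 11.30, 11.87 and 11.63 against 13.32, 12.25, 12.94 and 12.46, a difference of -1.56 ± 0.31 (adjusted p = 0.000823) with no overlap, kept without any single array. With 4000 ppm methylene chloride it had 10.73, 10.55, 10.44 and 10.20 against 11.42, 11.02, 11.97, 11.48 and 10.88, a difference of -0.87 ± 0.24 (adjusted p = 0.0128), lost without control replicate 3 or treated replicate 4 (adjusted p up to 0.0805). The methylene chloride trend was -0.78 ± 0.20 (adjusted p = 0.00583), but the differences at 100, 500, 2000 and 3000 ppm were 0.18, 0.25, 0.00 and -0.11, and without the top dose the trend was -0.16 (adjusted p = 0.745). In the trichloropropane trend Plin5 fell by 0.87 on the log2 scale ± 0.20 (adjusted p = 0.00824), with 10.71, 11.49, 11.52 and 11.66 at 60 mg/kg against 11.91, 11.33, 12.18, 12.34 and 12.49 in CCO6, where 1 control lay among the treated mice. That trend was lost without 60 mg/kg replicate 1 (adjusted p = 0.0714) and without the whole 60 mg/kg group (-0.64, adjusted p = 0.154). In the limma fit of every probe set, a second Plin5 probe set was called with malathion (-1.44, adjusted p = 0.00219). It was not called at 4000 ppm methylene chloride (-0.59, adjusted p = 0.222). Nor was it called in the methylene chloride trend (-0.48, adjusted p = 0.219) or the trichloropropane trend (-0.55, adjusted p = 0.2915).

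Cd36, the membrane protein that takes up long-chain fatty acids, rose in 6 groups, more than any other member. Under 4-nitroanthranilic acid it had 12.53, 12.39, 12.25 and 12.26 against 9.29, 9.04, 8.83 and 9.96 in FCO2, a difference of 3.07 ± 0.54 (adjusted p = 0.00396). Under malathion it had 12.19, 12.10, 11.22, 11.70 and 12.38 against the same controls, a difference of 2.64 ± 0.52 (adjusted p = 0.000663). Every treated mouse of both groups was at least 1 log2 unit above every control. Under 2,3-benzofuran it had 12.24, 12.18 and 12.69 against 10.60, 10.63 and 10.91, a difference of 1.66 ± 0.26 (adjusted p = 0.00364). Under 1,5-naphthalenediamine it had 12.50, 12.46 and 12.89 against 10.27, 9.42 and 9.48, a difference of 2.89 ± 0.26 (adjusted p = 6.41e-05). These 4 calls were kept without any single array.

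The other 2 rises of Cd36 were less firm. Pentachloronitrobenzene, a fungicide, gave 11.11, 11.55 and 11.34 against the same chow controls, a difference of 1.61 ± 0.26 (adjusted p = 0.0207, the only member beside 0.445% of all genes), lost without control or treated replicates 2 or 3 (adjusted p up to 0.0826). Its Gapdh log2 ratio was -0.40 to -0.38 against -0.33 to -0.22, and the call was kept with that ratio as a covariate (1.52). Methylene chloride at 4000 ppm gave 10.99, 11.71, 11.10 and 11.50 against 9.84, 9.45, 8.88, 10.45 and 10.63, a difference of 1.48 ± 0.44 (adjusted p = 0.0316), lost without control replicates 1, 2 or 3 or treated 2, 3 or 4 (up to 0.126). The methylene chloride trend was 1.41 ± 0.38 (adjusted p = 0.00911), and 0.58 (adjusted p = 0.444) without the top dose. Coumarin gave 11.55, 10.79, 11.52 and 9.88 against 9.15, 9.16, 8.31 and 8.84, a difference of 2.07 ± 0.54 that missed the threshold (adjusted p = 0.075). The other 2 Cd36 probe sets were higher in all 6 groups, by 1.06 to 2.64. Both were called with 4-nitroanthranilic acid, malathion and 1,5-naphthalenediamine, 1 of 2 with 2,3-benzofuran (the other at adjusted p = 0.059) and 4000 ppm methylene chloride (0.0667), and neither with pentachloronitrobenzene (0.0665 and 0.214).

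**Figure D5:**
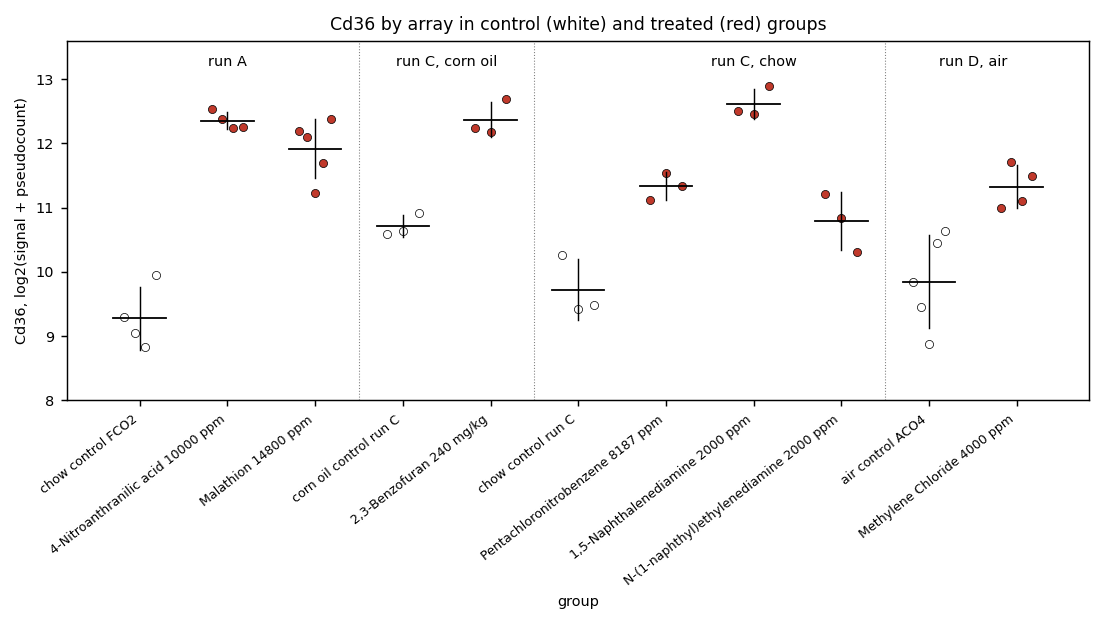
Each point is the Cd36 log2 signal of 1 mouse in control groups (white) and treated groups (red), with the mean as a horizontal bar and 1 SD as a vertical bar; dotted lines separate runs and vehicles. The 4-nitroanthranilic acid, malathion, 2,3-benzofuran and 1,5-naphthalenediamine mice lie at 11.22 or above, and the controls at 10.91 or below.

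Other cells of the liver carry Cd36, so their markers are given beside it. None of the 5 measured fat cell markers rose in any of these 6 groups, and their summed signal was 740 to 882 in 1,5-naphthalenediamine against 805 to 1940 in its controls and 684 to 2070 in 4-nitroanthranilic acid against 689 to 1100. None of the 6 endothelial or 6 Kupffer cell markers rose in the 6 groups. The endothelial sum was 2660 to 3360 in 1,5-naphthalenediamine against 3870 to 5280, and 2620 to 3290 in 2,3-benzofuran against 3570 to 4760. Stab2, an endothelial marker, fell with malathion (-0.77 ± 0.16) and 1,5-naphthalenediamine (-0.90 ± 0.19), and Tek with 2,3-benzofuran (-0.62 ± 0.13). Of the 6 Kupffer cell markers none fell either, but their summed signal lay wholly below the controls in 1,5-naphthalenediamine (5160 to 7850 against 8830 to 10400), 4-nitroanthranilic acid (4620 to 6900 against 7220 to 11500) and 2,3-benzofuran (5620 to 8610 against 8750 to 12300). The sum of 5 pancreatic acinar markers lay wholly below the controls in 5 of the 6 groups, with 1310 to 1990 in malathion against 4090 to 4890 and 756 to 1410 in 1,5-naphthalenediamine against 3860 to 5260. In 4-nitroanthranilic acid it was 1810 to 10500, and 1 acinar marker, Cela2a, rose (2.23 ± 0.50). On most arrays that sum is nearly all Cela1, with a median signal of 4500 and a lowest of 670. The medians were 120 for Prss2, 92.4 for Cela2a, 11.9 for Ctrb1 and 9.12 for Cpa1. The lower sums thus describe mainly Cela1 and do not measure pancreatic tissue beside the liver. The part of these cells in the Cd36 result was not tested.

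Partner calls in the 6 groups stand beside unequal shares of all genes called. No storage partner or regulator was called by limma with 4-nitroanthranilic acid (0.11% of all genes) or pentachloronitrobenzene (0.445%). The share was 4.37% with malathion, 3.28% with 2,3-benzofuran, 3.4% with 1,5-naphthalenediamine and 2.92% with 4000 ppm methylene chloride. Whether the partners differed between the groups was not tested. Of 19 storage partners, 2 rose and 1 fell with 2,3-benzofuran, and 1 rose with 1,5-naphthalenediamine, Lpl (2.43 ± 0.32). Of 24 regulators, Pparg rose with 2,3-benzofuran (2.87 ± 0.51) and 1,5-naphthalenediamine (2.81 ± 0.51), as with malathion, and Nr1i3 rose with 1,5-naphthalenediamine (0.64 ± 0.13). With 4000 ppm methylene chloride 1 storage partner rose, and 1 regulator rose and 1 fell.

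The 2 naphthyl amines allowed a comparison at 1 dose in 1 run. 1,5-Naphthalenediamine carries an amino group on each ring of naphthalene, whereas N-(1-naphthyl)ethylenediamine carries 1 ethylenediamine side chain. At 2000 ppm in feed, N-(1-naphthyl)ethylenediamine called no member (0.693% of all genes). At an unadjusted p under 0.05 it gave 12 members, beside 17.4% of all genes. Cd36 was 11.22, 10.84 and 10.31, a difference of 1.06 ± 0.26 from chow (adjusted p = 0.0691). The lack of a call depended on the processing, since Cd36 was called there with the higher pseudocount, and Cd36, Elovl3 and Lpin2 with dim genes left out. Set directly against each other, 1 member was called (0.923% of all genes): Cd36 was 1.82 higher with 1,5-naphthalenediamine (95% interval 1.26 to 2.38, adjusted p = 0.00411), and no arrays overlapped. This call was lost with the Gapdh ratio as a covariate (1.53, adjusted p = 0.188) and with the rescaled array as deposited. The log2 ratio was -0.06 to 0.16 in N-(1-naphthyl)ethylenediamine, -0.42 to -0.05 in 1,5-naphthalenediamine and -0.33 to -0.22 in chow. RNA integrity was 7.7 to 8.1, 8.8 to 8.9 and 8.8 to 9.1 in that order. For Fitm1 the difference was 1.86 (interval 0.55 to 3.16, adjusted p = 0.19), for Fasn -0.08 (interval -0.58 to 0.43, adjusted p = 0.929) and for Scd1 -0.07 (interval -0.34 to 0.20, adjusted p = 0.871). A single pair was compared.

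Control sets allowed vehicles to be compared without a chemical. In run A, corn oil, water and chow sets gave 5 comparisons by limma, among them corn oil against water gavage, and none called a member (0.0% of all genes). At an unadjusted p under 0.05 they gave 0 to 7 members, beside 3.3 to 8.44% of all genes. Sets of the same vehicle in run D called no member either (4 comparisons, with 0.0% of all genes called in 2, 0.0879% in ACO3 minus ACO5 and 0.126% in ACO4 minus ACO5). At an unadjusted p under 0.05 they gave 0 to 3 members, beside 4.91 to 12.4% of all genes. In run D, corn oil gavage controls were set against air chamber controls, where vehicle and route cannot be told apart, and 2 members were higher in corn oil (0.83% of all genes). G0s2 ran from 12.23 to 14.44 with a median of 13.62 over the 10 corn oil mice and from 11.33 to 13.03 with a median of 12.16 over the 15 air mice, a difference of 1.32 ± 0.26 (adjusted p = 0.000395) kept without any single array. Lpin2, a phosphatidate phosphatase, ran from 11.61 to 12.48 against 10.95 to 11.68, with overlap, a difference of 0.61 ± 0.17 (adjusted p = 0.0253), lost without CCO6 replicate 4, CCO5 replicate 3, ACO3 replicate 5 or ACO4 replicate 1 (adjusted p up to 0.0829). Of the partners, 2 of 22 in lipogenesis, 1 of 19 in storage and 1 of 24 regulators were higher and none lower. These were Pdk4 (2.23 ± 0.23), Fgf21 (2.32 ± 0.28, a fasting hormone), Aacs (1.11 ± 0.26, which activates acetoacetate) and Angptl4 (0.77 ± 0.22, a lipoprotein lipase inhibitor).

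In run B the air set ACO1 stood apart from the other 2 control sets. Corn oil (CCO4) minus air called 9 members among 28.5% of all genes, and chow (FCO1) minus air 4 members among 12.9% of all genes, so the share of members is near the background in both; both comparisons share the air mice. Corn oil against chow called none among 0.0% of all genes (4 members at an unadjusted p under 0.05, beside 9.35% of all genes). Elovl2 was 12.76, 11.96, 11.76 and 13.46 in air, 13.84, 13.53, 13.89 and 14.30 in chow, and 13.92, 13.89, 13.97 and 13.96 in corn oil. Dgat1, which adds the last acyl chain of triglyceride, was 11.42, 11.85, 11.79 and 10.94 in air, 10.65, 10.82, 10.39 and 10.64 in chow, and 10.58, 10.47, 10.50 and 10.34 in corn oil. Both vehicle groups lay on 1 side of every air mouse for both genes, and air replicate 4 was the mouse nearest to them. Relative to air, Elovl2 was higher by 1.45 ± 0.28 in corn oil and 1.40 ± 0.28 in chow, Elovl5 by 0.83 ± 0.19 and 0.79 ± 0.19, and Gpam by 0.76 ± 0.21 and 0.89 ± 0.21, while Dgat1 differed by -1.03 ± 0.18 and -0.87 ± 0.18.

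The other 5 calls were in corn oil against air. Dgat2, the second such acyltransferase, was 13.62, 13.71, 13.59 and 13.45 against 14.60, 14.38, 14.52 and 14.02, a difference of -0.79 ± 0.15. Plin5 was 11.98, 11.55, 12.02 and 12.15 against 12.88, 12.55, 13.51 and 12.40, a difference of -0.91 ± 0.27. Agpat2, Srebf1 and Mogat1 differed by -0.72 ± 0.24, -1.16 ± 0.43 and 1.04 ± 0.38; in Agpat2 and Srebf1, air replicate 4 (13.44 and 11.62) lay with the corn oil mice. The Gapdh log2 ratio was -0.64 to -0.62 in corn oil and -0.54 to -0.40 in air, and with it as a covariate all 9 corn oil calls were lost (Elovl2 1.36, adjusted p = 0.0926) and the 4 chow calls were kept. Without 1 array the count in corn oil ran from 5 to 12: Plin5 was lost without air replicate 3, Agpat2 without air 1, 2 or 3 or corn oil 3, Mogat1 without air 2 or 3 or corn oil 2, 3 or 4, and Srebf1 without air 1, 2 or 3 or corn oil 1, 3 or 4 (adjusted p up to 0.0675, 0.0857, 0.17 and 0.157). Quantile normalisation ended 4 corn oil calls, with Dgat2 at -0.46 (under the required fold), Agpat2 at -0.35 (adjusted p = 0.21), Srebf1 at -0.98 (adjusted p = 0.0678) and Mogat1 at 0.93 (adjusted p = 0.078). Elovl5 in chow was lost without air replicate 3 (adjusted p = 0.0552). The corn oil and chow controls of run C differed in no member (0.0% of all genes). At an unadjusted p under 0.05 they gave 11 members, beside 6.67% of all genes.

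Among control mice Fasn varied with some of the synthesis genes. Over the 59 control arrays, after each set's mean was removed, Fasn had an SD of 0.448 and its closest relations among 33 members were Thrsp (Pearson r = 0.806, Spearman rho = 0.837), Pklr (0.745 and 0.703), Acly (0.739 and 0.746), Acacb (0.734 and 0.63), Acss2 (0.626 and 0.635) and Pnpla5, a patatin-like lipase (0.599 and 0.576). For r, all 6 had a permutation p of 1e-05, the smallest that 100000 permutations can give (adjusted p = 5.5e-05). Without the 2 arrays farthest from the median of Fasn these r values were 0.833, 0.699, 0.791, 0.664, 0.593 and 0.527. Within runs A, B, C and D they were 0.873, 0.647, 0.899 and 0.868 for Thrsp, and 0.876, 0.402, 0.931 and 0.826 for Acly. Srebf1 followed at 0.535 (adjusted p = 0.00572), with 0.388 without the 2 farthest arrays, 0.169 in run A and 0.699 in run D. Dgat2 (r = 0.472, adjusted p = 0.00495), Fads1 (0.46, 0.00424), Gpam (0.451, 0.0209) and Fads2 (0.397, 0.0297) also passed. Within run B, Fads1 was at -0.064 and Gpam at -0.113. By r, Acaca (0.39, adjusted p = 0.0842, -0.123 within run B), Elovl6 (0.351, adjusted p = 0.0854) and Scd1 (0.311, adjusted p = 0.0976, -0.537 within run B) did not pass. By rho, Elovl6 did (0.372, adjusted p = 0.0404). Elovl2 ran the other way (r = -0.485, adjusted p = 0.0157), but at 0.183 within run C. These relations are between genes read on the same arrays, which share each mouse's scaling.

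No treated group called 17 of the 34 members: Acaca, Acss2, Agpat2, Cidea, Cidec, Dgat1, Dgat2, Elovl6, Fads1, Fitm2, Lpin2, Mogat1, Plin4, Pnpla3, Pnpla5, Scd1 and Srebf1. Their group differences spanned -0.35 to 0.32 for Dgat2, -0.49 to 0.42 for Fads1, -0.57 to 0.53 for Scd1, -0.42 to 0.83 for Acaca, -0.35 to 0.54 for Dgat1, -0.50 to 0.57 for Agpat2, -0.62 to 0.59 for Fitm2, the second fat storage-inducing protein, and -0.70 to 0.98 for Lpin2. Wider ranges belonged to Acss2 (-0.62 to 1.07), Elovl6 (-0.84 to 1.36), Srebf1 (-1.44 to 0.90), Pnpla3 (-1.29 to 0.93), Pnpla5 (-0.67 to 1.38), Mogat1, a monoacylglycerol acyltransferase (-1.10 to 1.31), Plin4 (-1.75 to 1.14), Cidec (-0.91 to 1.07) and Cidea (-0.76 to 1.21), the last 2 being droplet fusion proteins.

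In 29 treated groups no member was called, with 0 to 0.726% of all genes called. At an unadjusted p under 0.05 by limma they gave 0 to 12 members, beside 1.98 to 17.4% of all genes. Iodoform was one of these groups (0.0605% of all genes called). With it 11 members were higher and none lower at an unadjusted p under 0.05, beside 4.92% of all genes. Elovl6 was higher by 1.36 ± 0.42 (adjusted p = 0.677), Thrsp by 1.29 ± 0.51 (adjusted p = 0.865) and Fasn by 1.01 ± 0.41 (adjusted p = 0.888). Elovl6, which extends palmitate, had 11.56, 11.19, 12.40 and 11.05 with iodoform against 9.74, 10.02, 10.27 and 10.72 in CCO4, without overlap. Propylene glycol mono-t-butyl ether called no member in its trend (0.253% of all genes). At an unadjusted p under 0.05 that trend gave 9 members, beside 9.95% of all genes. Fasn differed by 0.85 ± 0.30 at 1200 ppm (adjusted p = 0.302).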

How the data were processed

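Liver RNA of 242 mice was measured on 1-colour Affymetrix mouse genome arrays. The deposited values are signal intensity per probe set, made with GCOS 1.0 per the submitters' processing notes; the other steps are not given in the sources used here. The members and gene lists were chosen with earlier results of these data known. In all, 2 arrays were rescaled to a trimmed mean of 500, log2(signal + 17.302) was taken, and for each of 18193 genes the probe set with the highest mean was kept, from 34945 probe sets with 1 gene symbol (932 had several and 9160 none). Each run was fitted separately with limma 3.58.1 (R 4.3.3), with 1 mean per group and, in run A, the run code as a block; p-values were adjusted by Benjamini-Hochberg over all genes. Control sets were matched to chemicals by vehicle, run and animal number. Trends run over control and 5 evenly spaced doses, scaled from control to top dose. Array values were given for members called at a chemical's highest dose, in a trend or between control sets; calls at lower doses were described after their values were seen. The fit was tested on simulated data. The number of arrays limits the precision. Alternatives were quantile normalisation, values as deposited, other pseudocounts, dim genes left out, all probe sets, the Gapdh ratio as a covariate, pooled controls in run D, 2 groups alone, other trend codings and each array left out.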

Additional observations from a re-analysis of the deposited data

Results flagged for a closer look

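Among 58 sets of values tested, 1 held a sample far from the others, where chance gives about 1 in 20. Lpin1 in chow control FCO2 replicate 3 had a log2 signal of 14.35 against 13.65 to 13.73 in the other 3 mice; the malathion call of Lpin1 was lost without that mouse. Cd36 was 1.82 higher on the log2 scale with 1,5-naphthalenediamine than with N-(1-naphthyl)ethylenediamine at the same dose, by the direct limma test of the difference (adjusted p = 0.00411).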

How the results depend on the processing

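No paired analysis was possible because replicate numbers only name mice and link none across groups. Of 66 calls over all comparisons, 29 were kept with each array left out. Quantile normalisation kept 57 of the 66. With 2 groups alone, the 42 calls became 8, with 0 in 4-nitroanthranilic acid, coumarin, pentachloronitrobenzene, naphthalene 0.5 and 3 ppm, methylene chloride, 1,4-dichlorobenzene and 1,2,3-trichloropropane, 2 in 2,3-benzofuran and 1 in 1,5-naphthalenediamine. With the values as deposited there were 20, with 0 in 2,3-benzofuran, pentachloronitrobenzene, the naphthyl amine difference, naphthalene 0.5 and 3 ppm, methylene chloride 2000 and 3000 ppm, trichloropropane 40 mg/kg and dichlorobenzene 400 mg/kg, 2 in 1,5-naphthalenediamine and dichlorobenzene 300 mg/kg, and 1 in methylene chloride 4000 ppm, dichlorobenzene 500 mg/kg and corn oil minus air; Gpam with 1,5-naphthalenediamine turned to -0.18. The Gapdh covariate left 1 in coumarin, 0 in corn oil minus air of run B, the naphthyl amine difference and dichlorobenzene 400 mg/kg, 3 in dichlorobenzene 300 and 1 in 500 mg/kg. Without dim genes there were 2 in the naphthyl amine difference, methylene chloride 3000 ppm and dichlorobenzene 600 mg/kg, 3 in naphthalene 3 ppm and 4 in the dichlorobenzene trend. Among dosed groups alone the trends called 5 (dichlorobenzene), 2 (methylene chloride) and 1 (trichloropropane), and without the highest dose 1 (methylene chloride) and 0 (trichloropropane). Every probe set fitted gave 0 in coumarin and trichloropropane 40 mg/kg and 2 in 1,5-naphthalenediamine, no run code block 0 in coumarin, and the higher pseudocount 2 in dichlorobenzene 600 mg/kg. Pooled controls gave 9 and 5 in naphthalene 0.5 and 3 ppm, 3, 3 and 6 in methylene chloride 2000, 3000 and 4000 ppm, 3 in dichlorobenzene 600 mg/kg and 0 in trichloropropane 40 mg/kg. With each array left out the counts ran from 5 to 12 (corn oil minus air, run B), 1 to 3 (corn oil minus air, run D), 0 to 2 and 0 to 1 (trichloropropane 40 and 60 mg/kg), 1 to 6, 0 to 1, 1 to 3 and 1 to 3 (dichlorobenzene 300 to 600 mg/kg), 2 to 4 (1,5-naphthalenediamine), 1 to 2 (4-nitroanthranilic acid), 0 to 2 (coumarin), 0 to 2, 0 to 2 and 1 to 3 (methylene chloride 2000 to 4000 ppm), 0 to 8 and 0 to 5 (naphthalene 0.5 and 3 ppm), 0 to 1 (pentachloronitrobenzene), 1 to 2 (trichloropropane trend) and 2 to 5 (dichlorobenzene trend). The cause of these changes was not tested. Fold changes of dim genes such as Fitm1 and Mogat1 are limited by signal over background.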

Other observations

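Cidea, a droplet fusion protein abundant in brown fat, and Ucp1, the brown fat uncoupling protein, were highest on the same 4 arrays, each replicate 2 of its group. Ethylene oxide at 100 ppm had log2 signals of 10.13 for Ucp1 and 9.48 for Cidea, and 1,2,3-trichloropropane at 20 mg/kg had 9.46 and 8.35. Methylene chloride at 100 ppm had 9.10 and 8.60, and the air control set ACO4 8.81 and 7.63. The summed signal of 5 fat cell markers was also high on these arrays, at 4730, 1990, 2450 and 2020 in that order, which rank 1, 6, 3 and 5 among the 242 arrays.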
